A study of Mus musculus with 4 samples.

Results

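The transcripts described here are those of integrin subunits of heart muscle and its stroma. The 10 genes chosen were Itga3, Itga5, Itga6, Itga7, Itgav, Itgb1, Itgb3, Itgb5, Itgb7 and Itgb1bp2. Every probe set that the platform annotation gives to exactly 1 of these symbols was taken. That gave 17 of the 12488 probe sets on the array, for 9 of the 10 genes, and 8 genes had a probe set bright enough to test. Itgb1bp2, a muscle protein that binds the tail of Itgb1, was not analysed here. The RNA came from ventricles of mice at 6 months of age, 2 samples from non-transgenic mice and 2 from transgenic mice that moderately overexpress serum response factor (SRF) in the heart alone. Which promoter drives the transgene, the strain and the sex are not stated by the labels. Nor do they tie each sample to an animal of its own, so the p values cover the spread among the 4 samples, part or all of which may be technical. The design text gives the purpose as a comparison of cardiac gene expression between the SRF transgenic and the wild-type heart.

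Integrins are cell surface receptors made of an alpha and a beta chain, and the pair that forms decides which matrix protein is bound. Outside the cell they hold laminin, fibronectin, vitronectin or other ligands. Inside it the beta tail recruits talin, kindlin and the actin cytoskeleton. In cardiac muscle the main laminin receptor pairs Itga7 with Itgb1 at the costamere, where the myofibril is anchored to the membrane. Fibroblasts carry the Itgav and Itga5 receptors, which bind fibronectin and, in the case of Itgav, can release latent TGF-beta from the matrix. SRF binds the CArG box, a short AT-rich element found in promoters of many actin and adhesion genes.

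The promoter windows are shown because the overexpressed factor is one that binds DNA. RefSeq promoter sequences (build GRCm38.p6), each running from 250 bases before a start site to 50 bases after it, were matched for 6 of the 10 genes in 7 windows, with Itga3 having 2 start sites. The CArG box was searched on both strands, in full and with 1 letter of its 10 changed. Itga6, Itga7, Itgb3 and Itgb1bp2 had no window and were not searched. A full CArG box was found in 0 of the 7 windows, against 1.63% of all 32851 windows of the same length. At that share 7 windows are too few for a count of 0 to say anything. A match with 1 letter off was found in 2 of 7, those of Itga5 and Itgb1, against 21.1% of all windows. The bases before those start sites are printed 5′ to 3′ on the strand of the gene, with the match in capitals. The Itgb1 bases lie at chr8:128685404-128685653 on the + strand, and their match begins 37 bases before the start site. Those of Itga5 lie at chr15:103366792-103367041 on the - strand, with the match 125 bases before the start site.
Itgb1: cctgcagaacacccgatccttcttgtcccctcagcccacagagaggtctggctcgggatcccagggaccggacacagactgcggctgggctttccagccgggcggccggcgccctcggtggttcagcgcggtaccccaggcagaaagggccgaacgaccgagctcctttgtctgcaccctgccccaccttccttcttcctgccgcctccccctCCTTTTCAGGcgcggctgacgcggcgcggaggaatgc
Itga5: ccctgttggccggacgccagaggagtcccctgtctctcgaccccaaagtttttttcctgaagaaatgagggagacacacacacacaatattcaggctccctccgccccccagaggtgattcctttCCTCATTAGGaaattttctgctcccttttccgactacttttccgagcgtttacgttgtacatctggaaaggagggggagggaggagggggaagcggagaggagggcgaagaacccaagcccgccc
A match is a description of the letters and not a binding site. No integrin probe set passed the test of expression given next, with or without a match, so that test says nothing about the matches.

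No integrin probe set passed the test for a difference between transgenic and non-transgenic ventricle. Of the 17 probe sets, 13 (8 genes) were above the filter on dim signals and were tested, and 0 rose and 0 fell at an adjusted p below 0.05 in limma with Benjamini-Hochberg adjustment over 7453 probe sets. Of all probe sets tested 7.93% passed, 303 higher and 288 lower. Among these calls 51.3% were rises, and 66.8% when arrays were scaled to equal medians. At an unadjusted p below 0.05 stood 4 of the 13 members (30.8%), against 24.2% of all probe sets. An ordinary test without moderation called 0 after adjustment. Before adjustment it had 3 of the 13 members below 0.05, against 1175 of all 7453 probe sets. In 8 of the 13 (61.5%) the 2 groups of arrays were fully apart, against 55.9% of all probe sets. The shares of 30.8% and 61.5% lie near the background. The median log2 change of the members was -0.20, with 5 values above and 8 below 0, against -0.01 for all probe sets tested, and the median size of change was 0.29 against 0.23.

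**Figure D1:**
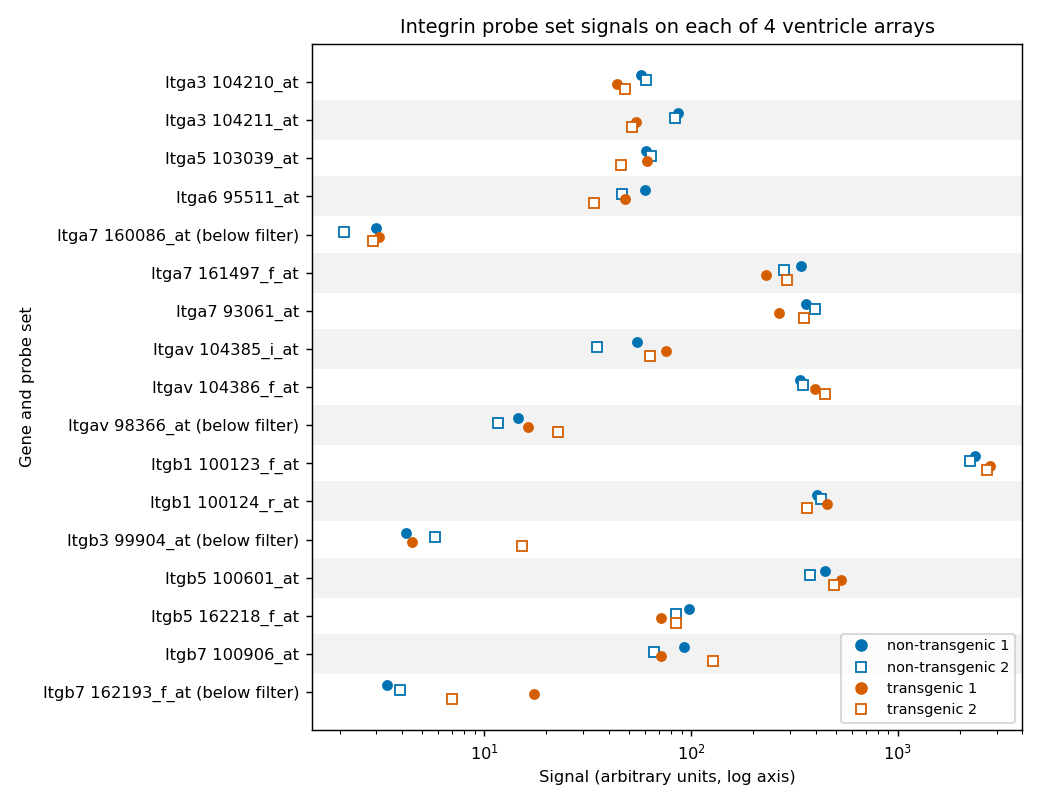
Signal of each of the 17 integrin probe sets on the 4 arrays, in arbitrary units on a log axis, with non-transgenic arrays in blue and transgenic arrays in orange. The 4 probe sets below the filter lie between 2.1 and 22.7, and in 8 of the 13 rows above it the blue and orange points do not overlap.

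Itgb1 is the beta chain shared by the laminin and fibronectin receptors in the list, and it came closest to the threshold. The signal of probe set 100123_f_at was 2361 and 2237.4 without the transgene and 2792.1 and 2681.2 with it. Both transgenic arrays were above both non-transgenic arrays. The log2 change was 0.25 ± 0.07 (moderated SE, n = 2 arrays in each group), a 1.19-fold difference with a 95% interval of 0.08 to 0.42 on the log2 scale. Its adjusted p was 0.0895 in limma with Benjamini-Hochberg adjustment. The call depended on the scaling of the arrays: the log2 change was 0.33 under both median centring and quantile normalization, and both passed the test (adjusted p = 0.0427 and 0.0411). The other Itgb1 probe set, 100124_r_at, read 404.7 and 426.5 against 453 and 364.4. The groups overlapped there and the log2 change was -0.03 ± 0.14 (SE), with an interval of -0.35 to 0.29. Both probe sets were designed on the same sequence. On this array type the suffix f marks probes that can match a family of related sequences and r marks a set for which some design rules were relaxed. The difference thus stood in 1 of the 2 Itgb1 probe sets.

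The laminin-binding alpha chains Itga3, Itga6 and Itga7 had log2 changes below 0 on all 5 tested probe sets, and 0 of these passed the test. Itga3, the chain of an epithelial laminin receptor, read 86.3 and 83.2 in non-transgenic and 54.2 and 51.7 in transgenic ventricle on probe set 104211_at. The groups were apart, and the log2 change of -0.60 ± 0.19 (SE; interval -1.04 to -0.16) was the largest in size among the 13 tested probe sets. Its adjusted p was 0.106 in limma with Benjamini-Hochberg adjustment. A second Itga3 probe set, 104210_at, read 57.3 and 60.5 against 43.9 and 47.9. These arrays were also apart, with a log2 change of -0.31 ± 0.21 (SE; adjusted p = 0.412 in limma).

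Itga7 is the alpha chain of the muscle laminin receptor. On probe set 93061_at its signal was 359.6 and 398.8 without the transgene and 265.8 and 350.1 with it. The lower of the transgenic arrays stood well below the rest, and the upper one just under the nearest non-transgenic array. The log2 change was -0.30 ± 0.16 (SE), with an interval of -0.67 to 0.07 and an adjusted p of 0.284 in limma. On 161497_f_at the signals of 338.9 and 280.1 overlapped those of 229.8 and 290.1, and the log2 change was -0.25 ± 0.16. The third Itga7 probe set, 160086_at, stayed between 2.1 and 3.1 on all arrays, below the filter, and was not tested (log2 change 0.06). Itga6, found in epithelial and vascular laminin receptors, had signals of 60.2 and 46.6 against 48.2 and 34.1 on its 1 probe set. These overlapped, at a log2 change of -0.32 ± 0.25 (SE; interval -0.92 to 0.28).

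Of the cardiomyocyte markers, 6 of 9 tested probe sets fell and 0 rose, where 3.86% of all probe sets fell and 4.07% rose. Myl3 and Tnni3 were among those that fell, and the list median log2 change was -0.28. Atp2a2 and Tnnt2 were close to the threshold (adjusted p = 0.0421 and 0.0476 in limma). Marker calls, apart from that of Postn, were not followed through the alternative settings. The summed signal of the cardiomyocyte markers was 87435.7 to 89418.5 in non-transgenic and 71458.1 to 71824.6 in transgenic samples. Sums of marker signals, here and below, take in all probe sets of a list, also those below the filter. Among the atrial markers 1 of 3 tested probe sets rose, that of the atrial light chain Myl7 (log2 change 1.38 ± 0.19, SE; adjusted p = 0.00898 in limma), and 0 fell. The 2 Myl4 probe sets gave 0.92 and 0.10 without passing, and Sln was below the filter (-0.22, no test). The summed atrial signals were 520.3 and 686.4 against 1232.9 and 1084.9. In whole ventricle, fewer cells of a type and less RNA per cell cannot be told apart. The part of these markers in the Itga7 values was not tested.

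The fibronectin receptor chain Itga5 had signals of 60.3 and 64.2 in non-transgenic and 61.1 and 45.8 in transgenic ventricle. The arrays overlapped, since transgenic replicate 1 lay between the non-transgenic values. Its log2 change was -0.20 ± 0.22 (SE; interval -0.72 to 0.32; adjusted p = 0.627 in limma), and the interval holds changes in both directions.

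Itgav, the alpha chain of the vitronectin receptors, had log2 changes above 0 on each of its 3 probe sets, and neither of the 2 tested ones passed. On 104386_f_at the signal was 336.2 and 348.3 in non-transgenic and 399.1 and 444 in transgenic ventricle. The groups were apart, with a log2 change of 0.29 ± 0.12 (SE; interval 0.02 to 0.57) and an adjusted p of 0.182 in limma. On 104385_i_at, built on the same expressed sequence, 55 and 35.2 stood against 76 and 63.5. The separation was again complete. The log2 change was 0.56 ± 0.25 (SE), and limma gave an adjusted p of 0.227. The probe set made from another Itgav sequence, 98366_at, was below the filter at 14.5 and 11.6 against 16.2 and 22.7, a log2 change of 0.36 with no test.

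Of the beta partners of Itgav, Itgb5 gave opposite signs on its probe sets. On 100601_at the Itgb5 signal was 445 and 377.8 against 532.1 and 489.3. The transgenic arrays were the higher ones, and the log2 change was 0.31 ± 0.12 (SE; interval 0.02 to 0.60; adjusted p = 0.185 in limma). On 162218_f_at it was 98.1 and 84.8 against 71.3 and 84.3, with the upper transgenic array just under the lower non-transgenic one and a log2 change of -0.21 ± 0.19 (SE). Itgb3, the beta chain of the platelet and osteoclast receptors, was below the filter on its 1 probe set, at 4.2 and 5.8 against 4.5 and 15.3. Transgenic replicate 2 alone was raised there. The 3 platelet marker probe sets, for Gp9, Pf4 and Gp1bb, were also below the filter, with summed signals of 35.4 and 41.4 against 32.4 and 40.1.

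Itgb7, the beta chain of gut-homing lymphocyte integrins, varied more between replicates than between groups. On 100906_at the signals were 92.9 and 66.3 in non-transgenic and 71.7 and 127.6 in transgenic samples. They overlapped, with a log2 change of 0.26 ± 0.29 (SE; interval -0.42 to 0.94), which became -0.12 without transgenic replicate 2. The other Itgb7 probe set, 162193_f_at, lay below the filter at 3.4 and 3.9 against 17.5 and 7. Its known alpha partners Itga4 and Itgae were below the filter on all of their probe sets.

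**Figure D2:**
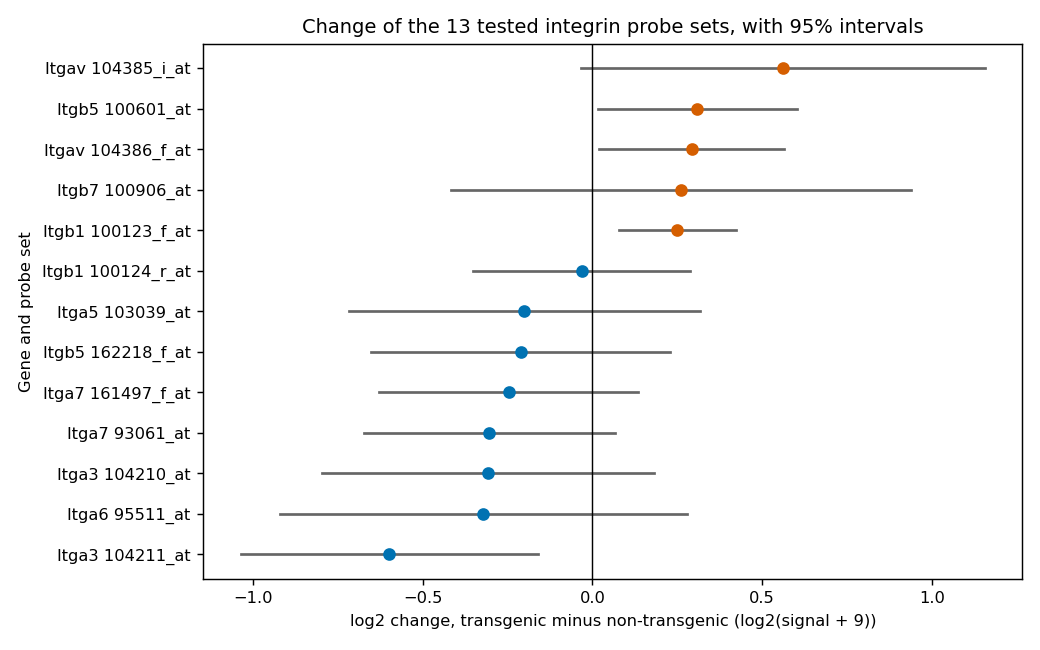
Log2 change of the 13 tested integrin probe sets (transgenic minus non-transgenic, on the log2(signal + 9) scale), ordered by value, with 95% intervals from limma that are not adjusted for the number of probe sets. The intervals of 4 probe sets, for Itgb1, Itgav, Itgb5 and Itga3, exclude 0, and none of these passed after adjustment.

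Probe sets of one gene can be set beside each other as a check on sign. In 5 genes more than 1 probe set was tested. The sign was shared in 3 of these (Itga3, Itga7 and Itgav) and differed in 2 (Itgb1 and Itgb5). Under all alternative settings the direction was kept in 186 of 190 member values. Only the pseudocounts, the scalings and the fits without 1 array could turn a sign. The filters, variance models, threshold and replicate block leave the log2 change as it was. The exceptions were the second Itgb1 probe set and Itgb7. The plot of settings shows that the plotted probe sets of Itgb1, Itgav, Itgb5 and Itga3 kept their directions throughout.

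**Figure D3:**
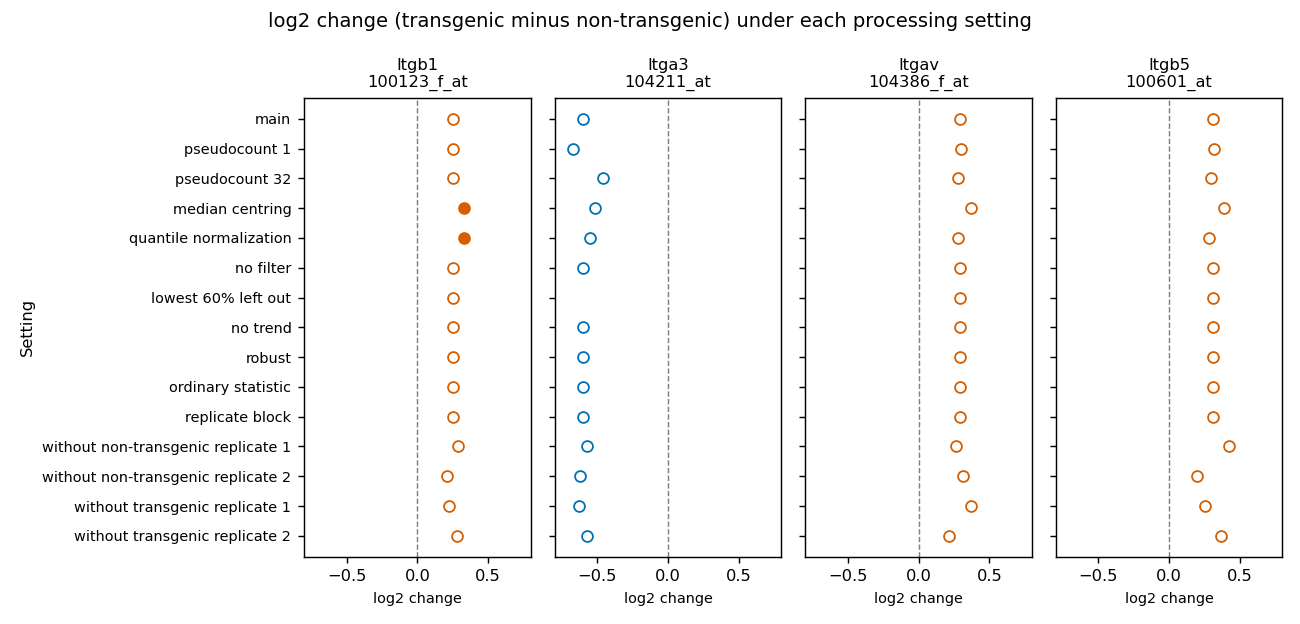
Log2 change of 4 integrin probe sets under each processing setting, where filled points passed an adjusted p of 0.05 and open points did not. Only the Itgb1 points for median centring and quantile normalization, at 0.33, are filled, and Itga3 has no point where the lowest 60% of probe sets were left out.

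Most fibroblast and leukocyte marker probe sets were higher in the transgenic samples, and both cell types carry Itgav, Itgb1 and Itgb5. Of 15 tested fibroblast marker probe sets 8 rose and 0 fell, where 4.07% of all probe sets rose and 3.86% fell. The fibroblast list median log2 change was 0.59. The log2 change was above 0 in 13 and below 0 in 2, neither past the threshold. Those 2 were Pdgfra 95079_at (-0.51) and Col1a2 161156_r_at (-0.17), while another Pdgfra probe set gave 0.75 without passing. The summed signal of the fibroblast markers was 8473 to 8545.3 in non-transgenic and 13308.5 to 13734.1 in transgenic samples. Leukocyte markers rose in 4 of 13 tested probe sets (Ctss, C1qb, C1qc and Cd52) and fell in 0. The log2 change was above 0 in 11 and below 0 in 2, Cd79a (-0.79) and Ms4a1 (-0.60), neither past the threshold. Over all 22 leukocyte probe sets, tested or not, the summed signals were 2690 to 2930.3 against 4018.2 to 4083. Endothelial markers had 1 higher (Eng) and 1 lower (Tie1) of 12, with 3 log2 changes above 0, 9 below and a median of -0.07. Their summed signal was 4255 to 4315.8 against 4476.4 to 4517.9, in which Eng alone read 1330.9 and 1193.8 against 1741.3 and 1780.2. Of the 7 tested smooth muscle and pericyte probe sets 1 rose (Acta2) and 0 fell. Log2 changes were above 0 in 3 of them and below 0 in 4, with a median of -0.17. Summed signals were 1231.7 to 1303 against 2377.9 to 2393.4. Acta2 alone read 396.7 and 430.6 against 1478.2 and 1539. No marker was at 0 on any array, but neither was any other probe set, since all deposited values are above 0. The part of these cells in the integrin values was not tested.

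The other integrin subunits were largely dim on this array. Of 18 further subunits 10 had probe sets, 14 in all, and only that of Itgax, a chain of dendritic cells and macrophages, was above the filter. Itgax read 67.4 and 47.6 against 58.4 and 68.7, which overlapped (log2 change 0.14 ± 0.23, SE; adjusted p = 0.760 in limma). The remaining probe sets, among them those of the leukocyte chains Itgam, Itgal and Itgb2, stood under the filter and were not tested.

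Integrin ligands changed in a few members only. Of 28 tested probe sets (23 genes) 3 rose, 1 fell and 24 did not pass, where 4.07% of all probe sets rose and 3.86% fell. The list median was 0.01. The risers were Ccn2, a matricellular protein that binds Itgav and Itgb1 receptors (log2 change 2.10 ± 0.09), periostin, Postn, a ligand of Itgav receptors (2.04 ± 0.13), and Tgfb3 (1.62 ± 0.12), whose latent form is held by Itgav. These 3 kept their calls with each of the 4 arrays left out in turn. Lama5, a laminin chain of vascular basement membrane, fell from 423.3 and 458.1 to 302.9 and 303.2. Its log2 change was -0.53 ± 0.11 (SE; adjusted p = 0.0366 in limma), and a second Lama5 probe set gave -0.35 ± 0.25 without passing. The first call ended whichever of the 4 arrays was left out, at log2 changes of -0.58 to -0.47. It also ended without the filter, under median centring and without the variance trend (adjusted p = 0.0546, 0.0691 and 0.117 in limma).

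Of the remaining ligands, 3 are given for the receptor they bind and were chosen after their values were seen. Fibronectin, Fn1, the ligand of Itga5, read 172.3 and 208 against 191.7 and 180.4 (log2 change -0.02 ± 0.15). The muscle laminin chain Lama2, bound by Itga7, read 308 and 291.1 against 304 and 304.3 (0.02 ± 0.12). Vitronectin, Vtn, an Itgav ligand made mainly by liver, read 109.3 and 201.9 against 62 and 76.3 (-1.02 ± 0.28; adjusted p = 0.0788 in limma). The summed signal of 7 hepatocyte marker probe sets was 1691.9 and 3052.3 in non-transgenic and 99.1 and 119 in transgenic samples, in the same order of arrays as Vtn. Its part in the Vtn value was not tested.

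Inside the cell, the adhesion complex that joins integrins to actin was tested on 43 probe sets (30 genes). Of these 3 rose, 1 fell and 39 did not pass, with a list median of 0.00. The counts lie near the shares of all probe sets, 4.07% higher and 3.86% lower. Those that rose were the crosslinking alpha-actinins of non-muscle cells. Actn4 went from 178.8 and 180.4 to 289.8 and 282, a log2 change of 0.64 ± 0.12 (SE; adjusted p = 0.0263 in limma). Actn1 rose on 2 probe sets, 92280_at (31.4 and 26.1 against 62.6 and 85.6) and 104578_f_at (144.1 and 160.6 against 294.3 and 227). The log2 changes were 1.13 ± 0.24 and 0.73 ± 0.17, and the third Actn1 probe set, 104579_r_at, gave 0.63 ± 0.24 without passing (adjusted p = 0.166 in limma). Bsg, a membrane glycoprotein found with integrins, fell from 5767.7 and 5664.5 to 4648.3 and 4807 (-0.27 ± 0.06).

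Fewer arrays ended most of these calls while the changes stayed near their size for Actn4 (0.63 to 0.66) and Bsg (-0.30 to -0.25). Actn4, the first Actn1 probe set and Bsg lost theirs whichever array was left out (limma adjusted p as high as 0.115, 0.218 and 0.179), and Bsg also under median centring and quantile normalization (0.0972 and 0.225). The second Actn1 probe set kept its call without transgenic replicate 2 (adjusted p = 0.0310 in limma) and lost it without each of the other arrays (0.0735 to 0.205). Of the core components, integrin-linked kinase, Ilk, had 283.2 and 295.1 against 310 and 261.3 (log2 change -0.02 ± 0.13). Talin, Tln1, gave -0.05 ± 0.08 on the probe set 162089_r_at and -0.11 and -0.24 on 2 others, and Fermt2, a kindlin, 0.31 ± 0.15 (adjusted p = 0.253 in limma). Ilk, Tln1 and Fermt2 were picked by role after their values were seen. Paxillin, Pxn, was lower without passing (-0.52 ± 0.18; adjusted p = 0.130 in limma). So was vinculin, Vcl, on 94963_at (-0.26 ± 0.09; adjusted p = 0.148 in limma), while its other probe set gave -0.002. Over the whole complex list 21 log2 changes were above 0 and 22 below.

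**Figure D4:**
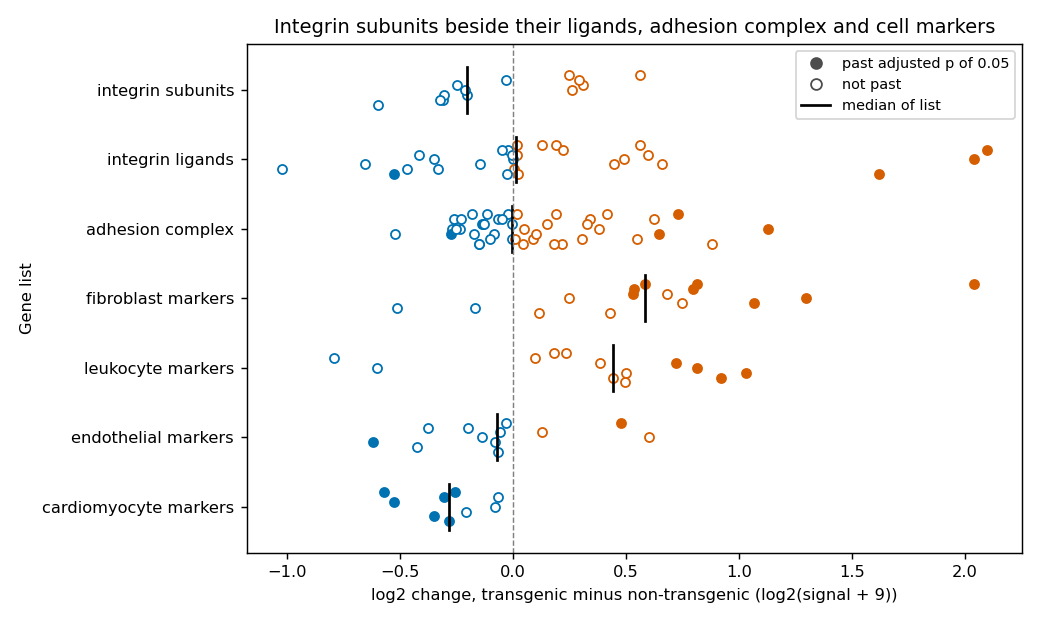
Log2 change (transgenic minus non-transgenic) of every tested probe set in the integrin list, its ligands, the adhesion complex and 4 cell marker lists, with filled points past an adjusted p of 0.05 and a bar at each median. The 13 integrin points are all open, while 8 of the 15 fibroblast marker points and 6 of the 9 cardiomyocyte marker points are filled.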

How the data were processed

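Each array gave 1 signal intensity per probe set. The deposited intensity values are on a linear scale, as the values themselves show (all above 0, right-skewed, 1 decimal). The mean of each array without its top and bottom 2% was 150.1, so the arrays had been scaled to one another. Scaling hides changes shared by most RNA. Signal software and detection calls were not used, and the software is not given in the sources used here. Biotin labelling followed the Affymetrix procedure, per the labels' protocols.

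Control probe sets (66) were left out, values were taken as log2(signal + 9), and probe sets in the lowest 40% by mean log2 signal were dropped on all 4 arrays together, groups unseen. Fold changes on this scale understate the change of dim genes. Array medians were 49.0 to 53.9 and correlations between arrays 0.961 to 0.981. The 2 non-transgenic and 2 transgenic arrays were compared with lmFit and eBayes (variance trend) of limma 3.58.1 (R 4.3.3). Tests were two-sided and adjusted by Benjamini-Hochberg over 7453 probe sets. The prior carried 5.05 degrees of freedom and the design 2. The fit was tested on simulated data. The number of arrays limits the precision.

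Every member probe set is named. From the other integrin, ligand and adhesion complex lists all called members are named, or those of smallest p up to 4. A rule naming genes most like the strongest called member did not apply, since none was called. Alternatives were other pseudocounts, scalings, filters, variance models, a looser threshold, the replicate number as a block, unsuffixed probe sets and leaving out each array. Members and lists were chosen with earlier results of these data known.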

Additional observations from a re-analysis of the deposited data

How the results depend on the processing

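The count of integrin probe sets called was 0 higher and 0 lower in every setting except 3, in which 1 was higher: median centring, quantile normalization and an adjusted p threshold of 0.1. That 1 was Itgb1 (100123_f_at). Signs turned in 4 member values: the second Itgb1 probe set, 100124_r_at, at 0.049 after centring each array, and at 0.01 and 0.12 with non-transgenic or transgenic replicate 2 left out, and Itgb7 at -0.12 with transgenic replicate 2 left out. With each array left out in turn the range was -0.185 to 0.122 for that Itgb1 probe set, -0.118 to 0.641 for Itgb7 and -0.078 to 0.355 for Itgax, which is no member.

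Over all probe sets, 172 were higher and 157 lower without the filter, 44 and 34 without the variance trend, 0 and 0 in the ordinary test, and 477 and 484 at a threshold of 0.1. Without 1 array they ran from 125 to 232 higher and from 158 to 191 lower. Ligands had 0 lower under median centring, 0 without the trend, 2 under quantile normalization, 3 with the lowest 60% left out and 3 at a threshold of 0.1. Without the filter 1 was lower, and it was Fgg in place of Lama5 (log2 change -2.19; adjusted p = 0.0437 in limma). Fgg lay below the filter at 27.5 and 58.9 in non-transgenic and 2 and 1.8 in transgenic samples. Without 1 array the ligands had 0 to 1 lower, and the adhesion complex had 0 to 1 higher and 0 lower. The complex had 0 lower under median centring, quantile normalization, no filter and no trend, and 1 higher without the filter and 0 without the trend. The ordinary test gave 0 higher and 0 lower in both lists. The cause of these differences was not tested.

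Same-numbered arrays share only a number (correlation of their deviations -0.06, 2 pairs). With the replicate block 2 ligands were lower, Vtn being the added one, and no member was called. A fit without 1 array assumes that the lone array varies like the other group.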
